A study of Sus scrofa with 15 samples.

Results

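The serum amyloid region on pig chromosome 2 was examined in liver RNA, as a window of 230 kb that runs from GTF2H1 to beyond the start of SAAL1. Of the 31908 genes in the deposited count table, 7 lie wholly inside this window, and 2 of them, ENSSSCG00000037358 and ENSSSCG00000013369, are the members described here. They were chosen by the rise of their read counts after lipopolysaccharide (LPS) and because one lies within the span of the other, so their difference between groups is given as a description without a test. All animals were male Duroc x Large White x Landrace piglets in the growing stage, with 6 piglets per group in the study, and their age was not analysed here. Piglets of the LPS group received 80 µg/kg LPS, the endotoxin of the outer membrane of Gram-negative bacteria, by intraperitoneal injection, and those of the control (CON) group received sterile saline. Livers were taken 4 h later, and whole liver was sampled, so every value is a mixture of hepatocytes, Kupffer cells, endothelial cells and other cells. The input RNA of an m6A immunoprecipitation experiment was sequenced in 3 libraries per group. The labels do not say which piglet each library came from, so any spread given here is the spread between libraries and may in part be technical.

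Serum amyloid A proteins are small apolipoproteins that hepatocytes secrete during the acute-phase response, and in plasma they travel on high-density lipoprotein (HDL). Interleukin-1 and interleukin-6 released by Kupffer cells and other myeloid cells induce their genes through NF-kB, STAT3 and C/EBP factors. SAA1, SAA2 and SAA3 are known as inducible forms in many mammals, whereas SAA4 is known in humans as a constitutive form, and the genes form a cluster between the transcription factor subunit gene GTF2H1, the lysosome-related organelle gene HPS5 and SAAL1, which encodes a serum amyloid A-like protein.

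In the count table, GTF2H1 was the only one of the 7 genes that carried a symbol. The remaining names were read from RefSeq gene positions on the Sscrofa11.1 assembly. The sources used here do not state the build of the count table, but 13674 of 13830 genes with the same symbol in both annotations (98.9%) overlapped on the same chromosome. RefSeq placed 4 serum amyloid A genes in the window.

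ENSSSCG00000037358, on the plus strand (chr2:40904116-41025952), is a long gene model of 5859 exon bases that joins several RefSeq genes. Its 39 distinct exon entries fell into 3 blocks separated by more than 10 kb. The first block held 22 entries and 57% of the exon bases and lay at HPS5. The second block, 33.3 kb further on, held 11 entries and 28.4% of the exon bases and lay at SAA2. The third block, after another gap of 45.2 kb, held 6 entries and 14.6% of the exon bases and lay at SAA3. Of its exon bases, 56% fell within HPS5, 17.1% within SAA2 and 14.6% within SAA3, so a part of the second block lay outside the RefSeq gene. The count of this gene is therefore a sum over the exons of these 3 blocks that the table does not divide. The blocks at SAA2 and SAA3 together held 2520 bases, or 43% of the exon length. A level per length over these blocks alone would be 2.33 times higher if all reads lay in them. It would be higher still if the reads lay in only a part of them.

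ENSSSCG00000013369, on the minus strand (chr2:40961348-40962500), is a short model of 593 bases in 4 exon entries. Of its exon bases, 421 (71%) fell within SAA1P, which RefSeq lists as a pseudogene. It lies between the HPS5 and SAA2 blocks of the long gene and shares 0 exon bases with it. The library kit keeps the strand, but whether reads were counted by strand and how reads that match several similar genes were treated are not stated in the sources used here. Serum amyloid A genes resemble each other in sequence, so the division of reads between these genes is uncertain.

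**Figure D1:**
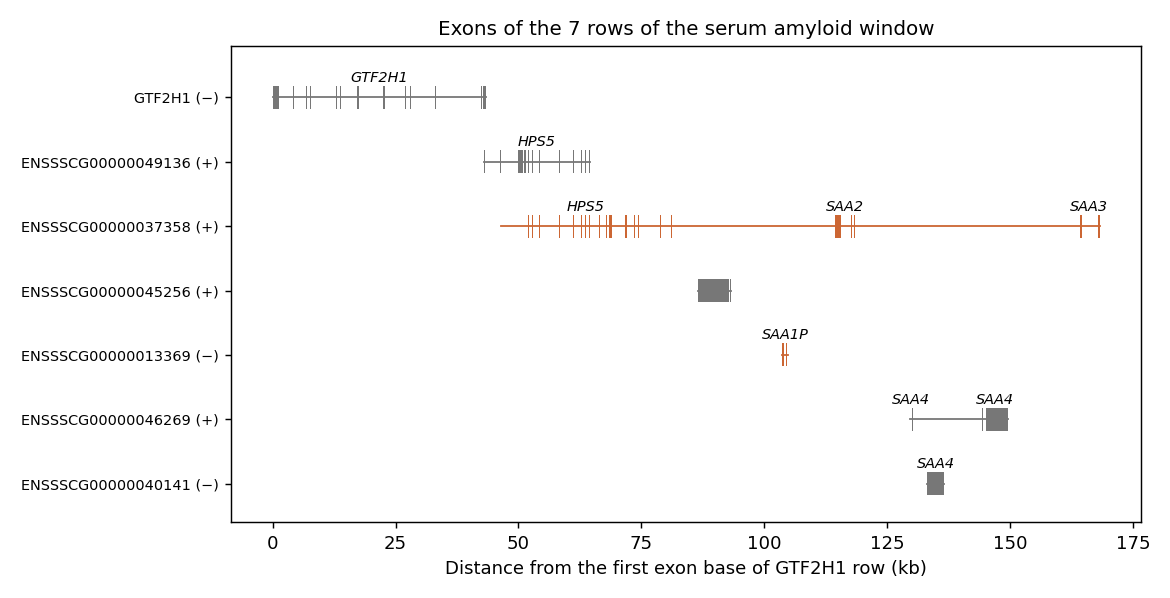
Exons (boxes) and span (line) of the 7 genes of the window, with distance in kb from the first exon base of GTF2H1 on the horizontal axis, the strand in parentheses, and the RefSeq gene at each exon block in italics. The 2 members are in orange: the long gene crosses HPS5, SAA2 and SAA3 in 3 blocks, and the short gene at SAA1P lies between its blocks.

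The reads of both members were far higher in every LPS library than in any CON library. The long gene had 2039, 763 and 4103 reads in CON replicates 1, 2 and 3 and 39511, 28626 and 265292 reads in LPS replicates 1, 2 and 3. As CPM, the count relative to the TMM-scaled library total, its level was 182, 119 and 406 in the CON libraries and 8615, 4683 and 18113 in the LPS libraries. The groups did not overlap, as for 6.52% of all 12774 genes tested that lay higher in LPS, and nothing is read from this since the rise chose the members. CON replicate 3 and LPS replicate 3 were the highest of their groups, and replicate 2 was the lowest in both.

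The mean level of the long gene was 236 ± 151 CPM in the CON libraries and 10470 ± 6904 CPM in the LPS libraries (SD, n = 3 libraries each). The 3 LPS libraries stood 36.5-fold, 19.9-fold and 76.8-fold above the CON mean, and the lowest of them stood 11.5-fold above the highest CON library. The edgeR log2 fold change was 5.47 (SE 0.70). Within the LPS group the highest level was 3.87 times the lowest, and within the CON group 3.40 times.

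The long gene became one of the most abundant in the liver libraries. It held 0.909% (95% exact binomial interval 0.900% to 0.918%), 0.520% (0.514% to 0.526%) and 1.33% (1.32% to 1.33%) of all counted reads in LPS replicates 1, 2 and 3. In the CON libraries the share was 0.0198%, 0.0129% and 0.0396%. These intervals cover counting error only. By read count it ranked 13th, 22nd and 11th of all genes in the LPS libraries and 545th, 948th and 226th in the CON libraries.

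The short gene at SAA1P started from a much lower level. It had 27, 51 and 97 reads in the CON libraries and 3813, 1097 and 9385 reads in the LPS libraries, or 2.41, 7.97 and 9.59 CPM against 831, 179 and 641 CPM. Again the groups did not overlap (6.52% of all genes tested, as above) and LPS replicate 2 was the lowest of its group, but here LPS replicate 1 was the highest.

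Its mean level was 6.66 ± 3.76 CPM in the CON libraries and 551 ± 335 CPM in the LPS libraries (SD, n = 3 libraries each). The LPS libraries stood 125-fold, 27.0-fold and 96.2-fold above the CON mean, the lowest LPS library stood 18.7-fold above the highest CON library, and the log2 fold change was 6.37 (SE 0.77). By read count the short gene ranked 122nd, 550th and 192nd in the LPS libraries and 11325th, 8140th and 7531st in the CON libraries. The lowest CON value rests on 27 reads, so the fold changes of this gene carry more counting error than those of the long gene.

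**Figure D2:**
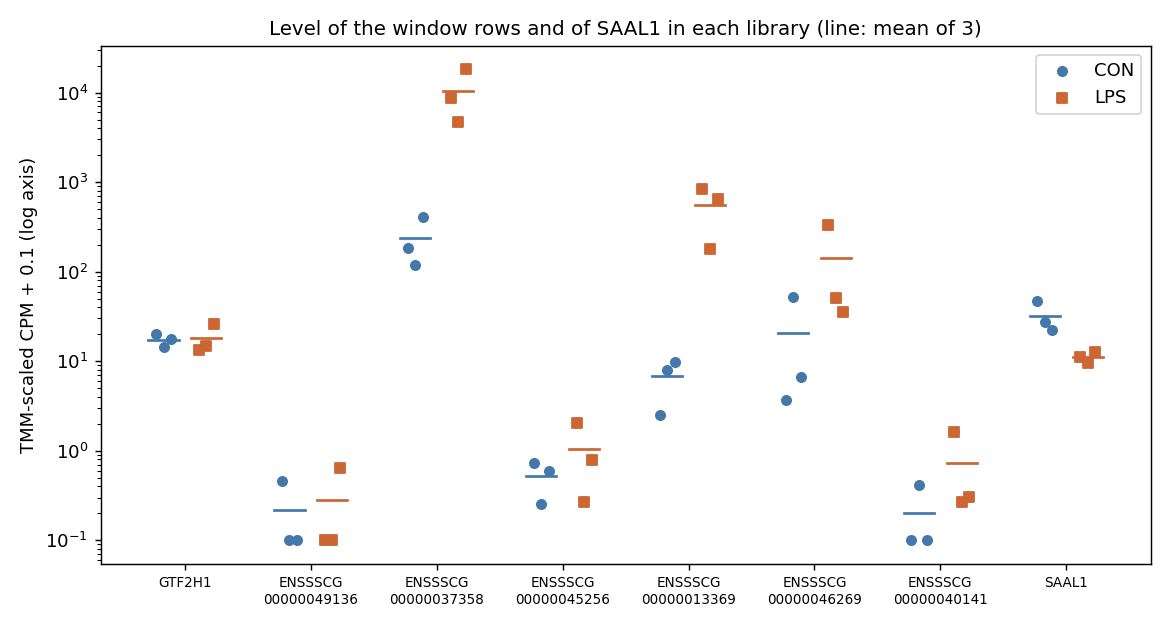
Level of the 7 window genes and of SAAL1 in each library as TMM-scaled CPM plus 0.1 on a log axis, with circles for CON, squares for LPS and a line at the mean of 3 libraries. Both members are separated between the groups, from 182, 119 and 406 to 8615, 4683 and 18113 CPM for the long gene, whereas ENSSSCG00000046269 overlaps and SAAL1 lies lower in the LPS libraries.

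LPS replicate 2 stood closer to the CON libraries than the other LPS libraries did. Across genes, its log2 CPM correlated with the CON libraries at a Pearson r of 0.923 to 0.945, and with LPS replicates 1 and 3 at 0.907 and 0.852. In that library the reads of the long gene were 19.9-fold and those of the short gene 27.0-fold above the CON mean, the smallest rise of the 3 LPS libraries for both. Without LPS replicate 2, the range over the remaining LPS libraries was 8615 to 18113 CPM for the long gene and 641 to 831 CPM for the short gene. The CON libraries held 5927348 to 10351491 counted reads each, and the LPS libraries 4348478 to 19967417.

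The ratio between the members was then compared. Its difference between the groups is the difference between both members' own rises, which chose them, so it is given as a description without a test. For every 100 reads of the long gene, the short gene had 1.32, 6.68 and 2.36 reads in the CON libraries and 9.65, 3.83 and 3.54 reads in the LPS libraries. LPS replicate 1 was the highest and CON replicate 1 the lowest, and the groups overlapped because CON replicate 2 lay above LPS replicates 2 and 3. The mean log2 ratio of short to long was -5.18 ± 1.18 in the CON libraries and -4.30 ± 0.80 in the LPS libraries (SD, n = 3 libraries each). The difference was 0.88, and without a test it does not show whether both genes rose by the same factor.

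Per exon length the members were closer to each other than in reads. As RPKM, which divides the CPM by the exon length in kb, the long gene stood at 31.1, 20.3 and 69.2 in the CON libraries and 1470, 799 and 3091 in the LPS libraries. The short gene stood at 4.07, 13.4 and 16.2 RPKM in the CON libraries and 1402, 303 and 1081 RPKM in the LPS libraries. In LPS replicate 1 their levels per length were 1470 and 1402 RPKM, nearly equal, and in each of the other 5 libraries the long gene was higher. The long gene's RPKM divides by its full exon length, including the HPS5 block. Over the blocks at SAA2 and SAA3 alone it would be 2.33 times higher if all reads lay there, and higher still over a part of them. The near equality therefore depends on the gene model.

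The gene at the RefSeq SAA4 locus overlapped between the groups. ENSSSCG00000046269, on the plus strand (chr2:40987252-41007266), has 4818 exon bases, of which 611 (12.7%) fell within SAA4. It had 40, 330 and 67 reads in the CON libraries and 1539, 309 and 515 reads in the LPS libraries, which is 3.57, 51.6 and 6.62 CPM against 336, 50.6 and 35.2 CPM. The overlap arose because CON replicate 2 lay above LPS replicates 2 and 3. The log2 fold change was 2.78 (SE 1.13), and it was 1.08 without LPS replicate 1 and 4.77 without CON replicate 2, so 1 library of each group decided its size. ENSSSCG00000040141, a single-exon model on the minus strand (chr2:40990843-40994349) inside the SAA4 span, had 0, 2 and 0 reads in the CON libraries and 7, 1 and 3 reads in the LPS libraries, too few to be tested.

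Relative to the long gene, the gene at SAA4 took a very uneven share. For every 100 reads of the long gene it had 1.96, 43.3 and 1.63 reads in the CON libraries and 3.90, 1.08 and 0.194 reads in the LPS libraries. CON replicate 2 stood apart from the other 5 libraries, and in that library the gene at SAA4 held 26.7% of all reads counted in the window. In every library the long gene was the main source of the window's reads, with 87.1%, 61.6% and 92.2% in the CON libraries and 87.9%, 95% and 96.3% in the LPS libraries.

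**Figure D3:**
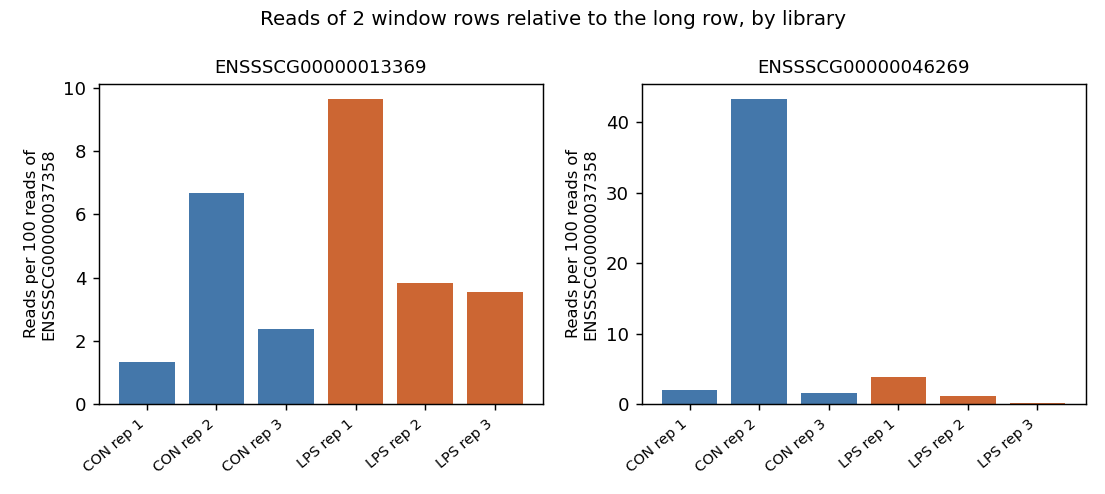
Reads of ENSSSCG00000013369 (left) and ENSSSCG00000046269 (right) per 100 reads of ENSSSCG00000037358 on the vertical axes, 1 bar per library, CON in blue and LPS in orange. On the left the groups overlap between 1.32 and 9.65 reads, and on the right CON replicate 2 stands apart at 43.3 reads.

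At the GTF2H1 end of the window, levels overlapped between the groups or rested on few reads. GTF2H1, which encodes a subunit of the transcription factor TFIIH and lies at one edge of the window on the minus strand (chr2:40857723-40901123), had 20, 14.2 and 17.5 CPM in the CON libraries and 13.3, 14.6 and 25.7 CPM in the LPS libraries. The groups overlapped, and the log2 fold change was 0.06 (SE 0.36). ENSSSCG00000049136, on the plus strand (chr2:40900678-40922268), had 94.5% of its exon bases within HPS5 and shared 48.7% of them with the long gene. It had 4, 0 and 0 reads in the CON libraries and 0, 0 and 8 reads in the LPS libraries. How a read in the shared exons was assigned is not stated in the sources used here, so the HPS5 part of the long gene's reads cannot be read from this gene. ENSSSCG00000045256, on the plus strand (chr2:40944178-40951004), lies between HPS5 and SAA1P with no RefSeq gene on it, and it had 1 to 7 reads in the CON libraries and 1 to 10 in the LPS libraries.

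SAAL1, on the plus strand (chr2:41028692-41108928), starts just after the long gene and ends outside the window, so it was tested with all genes. It was the only gene of the table whose symbol starts with SAA. Its level was 46.5, 27.5 and 22.4 CPM in the CON libraries and 11.1, 9.49 and 12.4 CPM in the LPS libraries, so all LPS libraries lay below all CON libraries. The same held for 9.8% of the 12774 genes tested. The log2 fold change was -1.54 (SE 0.36) and did not pass the edgeR quasi-likelihood test with Benjamini-Hochberg adjustment (adjusted p = 0.161, unadjusted p = 0.0018). DESeq2 gave an adjusted p of 0.0178, and over all settings tried the adjusted p ranged from 0.00621 to 0.621.

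The genes whose levels over the 6 libraries lay nearest to each member were then listed. Likeness was the root mean square difference between log2 CPM values, each set relative to its own CON mean, so that 0 is an identical course and 1 is an average deviation of one log2 unit. Both members share the libraries and the scaling with every gene compared, so the values are descriptions. The difference between the 2 members themselves was 0.99.

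Nearest to the long gene were CHI3L2, a chitinase-like secreted lectin (0.54), TIMP1, the tissue inhibitor of metalloproteinases (0.69), S100A8, a calcium-binding protein of neutrophils and monocytes (0.87), TNC, the matrix protein tenascin C (0.92), and RETN, which encodes resistin (0.97). TIMP1 had 16.0, 16.7 and 32.2 CPM in the CON libraries and 578, 175 and 2276 CPM in the LPS libraries. Like the long gene, all 5 were lowest among LPS libraries in replicate 2 and highest in replicate 3, which their choice by likeness favours. CHI3L2 was at 0 to 0.0989 CPM in the CON libraries and at 16.4, 4.25 and 16.5 CPM in the LPS libraries. S100A8 and RETN were also near the floor in the CON libraries, at 0.312 to 0.396 and 0 to 0.268 CPM. The distances of these genes therefore depend on the prior count, a small number added to the counts before taking logs.

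Nearest to the short gene were CHI3L2 (0.99), SDS, the serine dehydratase of hepatic amino acid breakdown (1.00), TIMP1 (1.29), RETN (1.34) and TGM3, a transglutaminase (1.40). SDS had 3.40, 6.41 and 8.60 CPM in the CON libraries and 831, 46.0 and 253 CPM in the LPS libraries. Like the short gene it was highest in LPS replicate 1 and lowest in LPS replicate 2, which its choice by likeness favours. CHI3L2, TIMP1 and RETN were near both members.

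**Figure D4:**
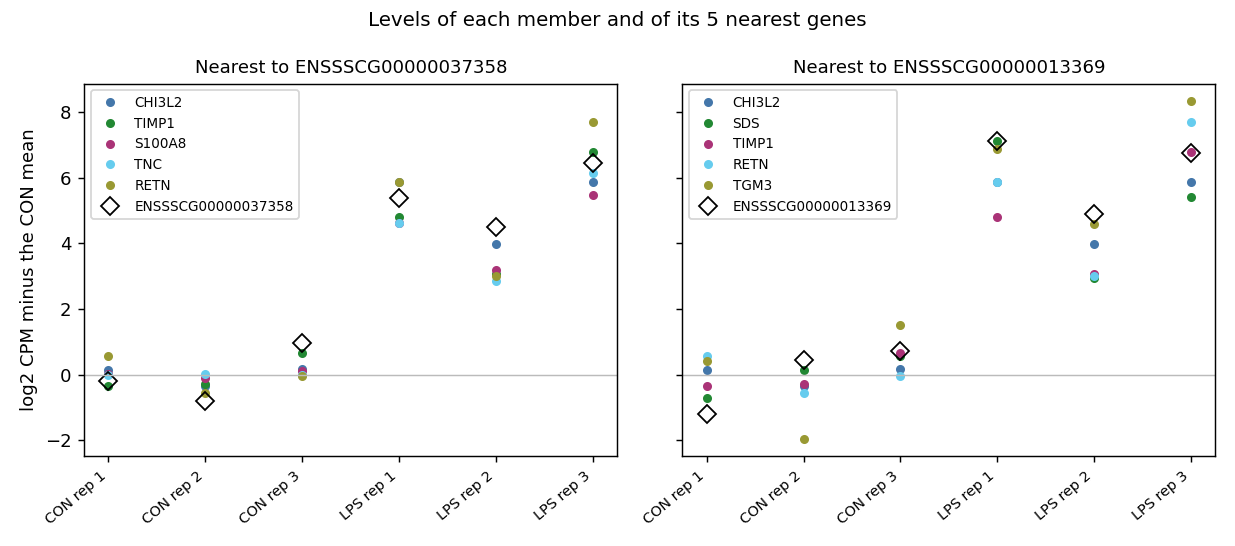
Log2 CPM of each member (diamonds) and of its 5 nearest genes (dots) in each of the 6 libraries, relative to each gene's own CON mean. The long gene (left) lies at 5.38, 4.50 and 6.45 and the short gene (right) at 7.12, 4.91 and 6.75 in LPS replicates 1, 2 and 3.

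Other genes of the acute-phase pathway were taken as 7 lists of 84 symbols in all, of which 73 had a gene in the table and 71 were tested. A gene was called at an adjusted p below 0.05 and a fold above 1.5. Across all 12774 genes tested, edgeR called 7 higher in LPS (0.0548%) and 0 lower (0%), while 790 (6.18%) were higher and 809 (6.33%) lower at an unadjusted p below 0.05. DESeq2 called 258 genes higher (2.02%) and 146 lower (1.15%), and limma-voom called 2 higher (0.0157%) and 0 lower (0%). Of the 71 list genes, edgeR called 1 higher and 0 lower, with 19 higher and 3 lower at an unadjusted p below 0.05, DESeq2 called 10 higher and 2 lower, and limma-voom called none. Without LPS replicate 2, edgeR called 17 of these list genes higher and 2 lower at both thresholds, beside 465 and 463 of the same 12774 genes. Among all genes that this refit itself tested, it called 512 and 470.

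Among the plasma proteins known to rise in the acute phase, 16 of 19 tested had a log2 fold change above 0, and the median was 1.45 against 0.01 over all genes. LCN2, which encodes the iron-sequestering lipocalin 2, was the 1 gene called. It had 2.95, 5.00 and 4.94 CPM in the CON libraries and 114, 29.4 and 129 CPM in the LPS libraries, with a log2 fold change of 4.41 (SE 0.58, edgeR adjusted p = 0.0379). By edgeR the call was lost on leaving out any CON library or LPS replicate 1 (adjusted p from 0.155 to 0.543) and with a filter of at least 10 counts in every library (0.0578), and limma-voom gave 0.0669, whereas DESeq2 gave 4.62e-13.

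ITIH4, an inter-alpha-trypsin inhibitor heavy chain known as a major acute-phase protein of the pig, had 2062, 1885 and 2820 CPM in the CON libraries and 12626, 5574 and 11326 CPM in the LPS libraries. Its log2 fold change of 2.13 (SE 0.41) did not pass (edgeR adjusted p = 0.0982), although its groups did not overlap. It passed with DESeq2 (adjusted p = 4.74e-05) and by edgeR without LPS replicate 2 (0.00654), and over all settings tried the adjusted p ranged from 5.01e-09 to 0.586. PTX3, a pentraxin of innate immunity, had a log2 fold change of 3.41 (SE 0.81, edgeR adjusted p = 0.163). It passed with DESeq2 (adjusted p = 0.000676) and by edgeR without LPS replicate 2 (0.0208), with a range from 8.27e-07 to 0.543. In this list 7 of 19 genes had no overlap between the groups and lay higher in LPS, against 6.52% of all genes tested, and 11 of 19 had an unadjusted p below 0.05 and lay higher. In the other direction, 1 of 19 had no overlap, against 9.8% of all genes tested, and 1 of 19 had an unadjusted p below 0.05. The latter was LECT2, a hepatocyte-derived chemotactic factor named here after its values were seen (log2 fold change -1.78, SE 0.47, edgeR adjusted p = 0.204). DESeq2 called 8 of the list higher and 1 lower, and limma-voom called 0.

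In level per length, the members, which were chosen for their rise, moved up among these genes. Only 19 of the 24 symbols of this list had a gene in the table. Haptoglobin (HP), the fibrinogen alpha chain (FGA), ORM1, SERPINA3 and FTH1 had none and could not be ranked, so the places hold among the genes present. Of 21 genes (the 19 and the 2 members), the long gene was 13th in each CON library and 6th, 6th and 5th in LPS replicates 1, 2 and 3. The short gene was 16th, 15th and 15th in the CON libraries and 7th, 8th and 9th in the LPS libraries. The long gene's places again rest on its full exon length, including the HPS5 block. The first place in LPS replicate 3 was held by FGB, the fibrinogen beta chain, at 8556 RPKM, beside 3091 RPKM for the long gene.

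**Figure D5:**
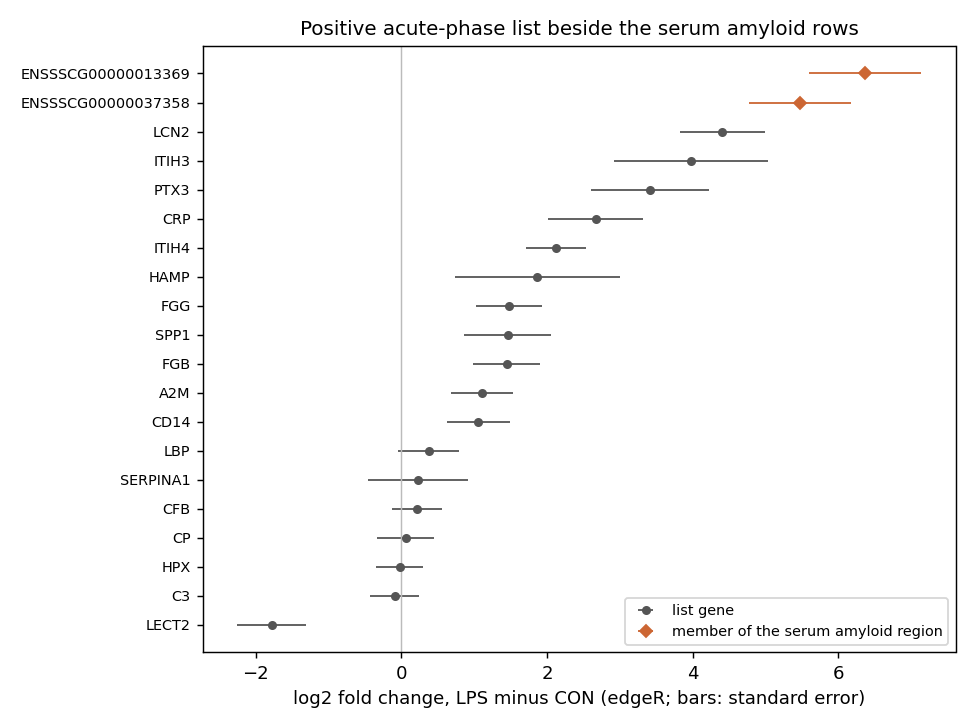
Log2 fold change of LPS against CON (horizontal axis, edgeR, bars are standard errors) for tested positive acute-phase genes (dots) and the 2 members (orange diamonds). The members lie at 5.47 and 6.37, beside 4.41 for LCN2, 2.13 for ITIH4 and 3.41 for PTX3.

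Genes of the negative acute-phase list, mostly plasma proteins, are known to fall in the acute phase. Of 11 tested, 10 had a log2 fold change below 0, and the median was -0.43. By edgeR none was called in either direction, 1 was lower at an unadjusted p below 0.05, and DESeq2 called 1 lower. That gene was CYP7A1, which encodes no plasma protein but the intracellular rate-limiting enzyme of bile acid synthesis, with 16.4, 21.2 and 16.0 CPM in the CON libraries and 0.436, 2.29 and 0.273 CPM in the LPS libraries (log2 fold change -4.25, SE 0.68, edgeR adjusted p = 0.0668). It passed by edgeR without LPS replicate 2 (adjusted p = 0.000569), with a range from 7.89e-13 to 0.563 over all settings tried. IGF1, the hepatic growth factor, was the 1 gene above 0 (1.44, SE 0.68, edgeR adjusted p = 0.43).

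The receptors, factors and feedback genes that act upstream of serum amyloid A gave no call by edgeR. Of 10 inducing receptors and adaptors, 9 had a log2 fold change above 0 with a median of 0.70, and 1 was higher at an unadjusted p below 0.05. JAK1, a kinase of cytokine receptors, was at 1.14 (SE 0.49, edgeR adjusted p = 0.376) and IL6R, the interleukin-6 receptor, at 0.74 (SE 0.33, edgeR adjusted p = 0.401). Of 13 transcription factors, 11 were above 0 with a median of 0.61, and 2 were higher at an unadjusted p below 0.05. These were CEBPB at 1.20 (SE 0.48, edgeR adjusted p = 0.353) and CEBPD at 1.36 (SE 0.59, edgeR adjusted p = 0.385). DESeq2 and limma-voom called none in either list.

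CEBPD had 193, 371 and 330 CPM in the CON libraries and 1348, 207 and 737 CPM in the LPS libraries, so that LPS replicate 2 lay within the CON range. Without LPS replicate 2, CEBPB and CEBPD both passed (log2 fold changes of 1.58 and 1.81, edgeR adjusted p = 0.0307 and 0.0259). Over all settings tried the adjusted p ranged from 0.00149 to 0.76 for CEBPB and from 0.000691 to 0.856 for CEBPD.

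Of 7 tested genes that dampen these signals, all had a log2 fold change above 0, with a median of 1.83. Of these, 4 were higher at an unadjusted p below 0.05, and DESeq2 called 2 of them. IL1R2, the decoy receptor of interleukin-1, was at 4.58 (SE 0.80, edgeR adjusted p = 0.0847). SOCS3, the inhibitor of the STAT3 pathway, had 17.5, 45.1 and 27.6 CPM in the CON libraries and 289, 18.8 and 627 CPM in the LPS libraries, a log2 fold change of 3.38 (SE 0.98, edgeR adjusted p = 0.23). Without LPS replicate 2, edgeR called 4 of the 7 genes higher, with adjusted p = 0.00151 for IL1R2 and 0.00184 for SOCS3. Over all settings tried the adjusted p ranged from 2.82e-08 to 0.586 for IL1R2 and from 9.5e-14 to 0.71 for SOCS3. LPS replicate 2 again lay within the CON range for SOCS3. The members are not compared with it here, since their rise chose them.

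Genes of the HDL particles that carry serum amyloid A had a median log2 fold change of -0.31 over 9 tested, with 0 called by edgeR, DESeq2 or limma-voom and 1 lower at an unadjusted p below 0.05. PON1, the HDL-bound paraoxonase, had 177, 140 and 116 CPM in the CON libraries and 53.0, 82.5 and 84.3 CPM in the LPS libraries (log2 fold change -0.98, SE 0.33, edgeR adjusted p = 0.274). APOA2, an HDL apolipoprotein, was at -0.79 (SE 0.43, edgeR adjusted p = 0.492). Of the receptors reported to bind serum amyloid A, 4 were tested with a median of 0.43, 0 were called by any of these tools, and 1 was higher at an unadjusted p below 0.05. TLR2 was at 1.36 (SE 0.44, edgeR adjusted p = 0.26) and TLR4 at 0.41 (SE 0.35, edgeR adjusted p = 0.673). Without LPS replicate 2, TLR2 passed (edgeR adjusted p = 0.0167), with a range from 0.00056 to 0.72 over all settings tried.

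Markers of the cell types in the tissue were summed for comparison. The 10 hepatocyte markers summed to 52839 to 80096 CPM in the CON libraries and 49857 to 98472 CPM in the LPS libraries, and the liver label was borne out by their abundance. Neutrophil markers, as a sum, were higher in the LPS libraries. The 11 of 16 with a gene in the table summed to 24.2 to 34.9 CPM in the CON libraries. In LPS replicates 1, 2 and 3 these markers summed to 179, 90.1 and 325 CPM. The long gene had this order of LPS libraries, and the short gene, highest in LPS replicate 1, did not. Genes of other lists such as JAK1, SOCS3 and TLR2 also had it, whereas CEBPD and ITIH4 did not. Nothing is read from the order of so few libraries. Of these markers 7 were tested, 6 had a log2 fold change above 0, the median was 2.21 and 1 was called (S100A8). MMP8 was at 0 in the CON libraries.

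The 11 Kupffer cell or macrophage markers with a gene in the table summed to 2011 to 3261 CPM in the CON libraries and 1376 to 2316 CPM in the LPS libraries, and 0 of 11 had a log2 fold change above 0 (median -0.48). The medians were -0.62 for 6 endothelial markers and -0.19 for 8 cholangiocyte or stellate markers. In bulk RNA, more cells of a type and more RNA per cell cannot be told apart. The part of the neutrophil markers in the members' values was not tested.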

How the data were processed

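Input libraries of piglet liver (3 CON, 3 LPS) were analysed from 1 table in which the authors deposited raw read counts per Ensembl gene, with each gene's exon coordinates and length. The counts are whole numbers and were not normalized. The submitters' notes name cutadapt 1.9.3 and HISAT2, and the builds galGal6 and hg38 but no pig build. The counting program, annotation release, strand setting and handling of multiply mapped reads are not stated in the sources used here. The labels list 2 sequencing entries for CON replicate 1 and for CON replicate 2, and the table has 1 column for each. Sample columns left unmapped numbered 0. The m6A-IP libraries were not analysed here, and no sequence is printed.

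Genes were kept by filterByExpr (minimum count 10), scaled by TMM and compared with the quasi-likelihood test of edgeR 4.0.16 in R 4.3.3 (robust dispersions, no covariates), with Benjamini-Hochberg adjustment over all 12774 genes tested and a call at an adjusted p below 0.05 and a fold above 1.5. Standard errors (SE) were derived from the fold change and the F statistic. CPM values are TMM-scaled, and RPKM divides them by the table's gene length. DESeq2 1.42.0, limma-voom (limma 3.58.1), other scalings and filters, a block, and leaving out each library were alternatives. Scripts were tested on simulated data. Symbols paired with 15029 of 31908 identifiers. RefSeq (Sscrofa11.1) gave the names and positions of neighbouring genes only, by overlap with the table's exons.

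Named genes were both members, every other gene of the window, every gene whose symbol starts with SAA, the called genes and the 2 with the smallest p in each list, and the 5 genes nearest each member (log2 CPM, prior count 2). A gene of the positive acute-phase list is not reported here and is left out of its plot. The members and lists were chosen with earlier results of these data known. Total counts per library ranged from 4348478 to 19967417, which sets the counting error. The p-values measure the spread between libraries.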

Additional observations from a re-analysis of the deposited data

How the results depend on the processing

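Over the 19 alternatives that keep the members apart, the log2 fold change ranged from 4.83 to 6.16 for the long gene. For the short gene it ranged from 5.96 to 6.84, and both summed into 1 gene gave 5.51. The members were chosen for their rise in these libraries, so nothing is read from its unchanged direction. The difference in their log2 ratio ranged from 0.35 to 1.52 over the libraries left out. Counts of called genes depended strongly on the setting, and the cause was not tested. Against 7 higher and 0 lower by edgeR, the whole table gave 258 and 146 with DESeq2, 536 and 349 with no filter and 11 and 1 with scaling to total counts. RLE factors gave 1 lower, at least 10 counts in every library 0 higher, and limma-voom 2 higher. Against 1 higher and 0 lower of the list genes, DESeq2 gave 10 and 2 and no filter 15 and 2, while at least 10 counts in every library and limma-voom gave 0 higher.

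Leaving out 1 library gave 0 to 512 genes higher and 0 to 470 lower by edgeR, and 0 to 17 and 0 to 2 in the lists. Leaving out any CON library gave 0 higher, LPS replicate 1 gave 1 higher, LPS replicate 3 gave 39 higher and 19 lower, and LPS replicate 2 gave 512 and 470. DESeq2 without 1 library, chosen after seeing the data, gave 94 to 799 higher and 34 to 750 lower, and 5 to 27 and 1 to 3 in the lists. The log2 fold change of ENSSSCG00000046269 ranged from 1.08 to 4.84. With a prior count of 0.5, 4 and 3 of the 5 nearest genes of the long and short gene remained and S100A8 was nearest to the long gene, and scaling to total counts kept all 5 of each.

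With the replicate number as a block, edgeR called 42 genes higher and 9 lower, and 4 and 1 in the lists. Deviations of same-numbered libraries from their group means correlated at r of -0.24, 0.22 and 0.03, and not every library correlated best with its own number. With 3 libraries per group these values cannot decide whether same-numbered libraries shared more than a number, and the labels do not say.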
